A study of Mus musculus with 2 samples.

Results

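Mir22, Mir132 and Mir212 are microRNA (miRNA) genes taken by name, for their known roles in the growth of cardiac muscle cells, from the 2202 miRNA genes counted in mouse heart. All 3 were found by their Ensembl gene IDs, and all 3 had reads in both libraries. The data were 2 small RNA sequencing libraries of heart tissue from adult male B6CASTF1/J mice, a hybrid of the strains C57BL/6J and CAST/EiJ, aged 18 to 20 months, and the labels name no treatment and no engineered allele. The libraries are labelled biological replicates 2 and 1 of 1 group. Each has its own biosample but both have the same donor record, and differences between them may therefore be technical. The p-values rest on counting error or on how far these libraries differ, and variation among animals was not measured. No condition was compared.

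A miRNA is cut from a hairpin precursor, and its seed, bases 2 to 8 of the mature strand, pairs with messenger RNAs that it represses. In mice, miR-22 is abundant in cardiac muscle cells, and hearts without it grow less under stress. In mice, miR-132 and miR-212 are made from 1 shared precursor transcript and promote growth of cardiac muscle cells, in part by repressing Foxo3, a transcription factor that restrains growth and drives autophagy. Both are also abundant in neurons.

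The hairpins are shown because each gene's count adds up reads from both arms of its hairpin. They come from RefSeq (build GRCm38.p6), read 5′ to 3′, with the mature 5p and 3p arms in capitals. All 3 genes matched a hairpin and its mature sequences there.
Mir22: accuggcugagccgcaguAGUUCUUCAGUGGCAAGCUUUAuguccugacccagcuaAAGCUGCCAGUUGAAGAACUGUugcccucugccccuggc
Mir132: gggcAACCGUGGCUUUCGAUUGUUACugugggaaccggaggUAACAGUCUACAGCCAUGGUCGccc
Mir212: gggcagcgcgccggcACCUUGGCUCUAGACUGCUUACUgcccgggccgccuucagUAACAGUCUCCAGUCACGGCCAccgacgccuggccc

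The 3p strands are shown again for their seeds, in capitals, because 2 of the 3 genes share one.
mmu-miR-22-3p: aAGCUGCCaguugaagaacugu
mmu-miR-132-3p: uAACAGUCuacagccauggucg
mmu-miR-212-3p: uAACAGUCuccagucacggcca

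The miR-132-3p and miR-212-3p strands have the same seed, which no other mature mouse miRNA in the RefSeq table has, and no other miRNA there has the seed of miR-22-3p. Both strands have 22 bases, of which 17 are identical. Counted from 1 at the 5′ end, with the base of miR-132-3p first, they differ by A10C, C14U, U17C, U20C and G22A. Their longest common stretch is the first 9 bases, so a full-length read of one does not match the other. The 5p arms have different seeds, and the longest stretch that miR-132-5p and miR-212-5p have in common is 5 bases. The longest exact stretch that any other miRNA hairpin shares with a member, on either strand, is 13 bases for Mir22, 11 for Mir132 and 12 for Mir212. None of the 6 mature arms occurs in another hairpin. Copies outside annotated hairpins were not searched. The arms are 22 or 23 bases long, so read counts were compared between the genes without correction for length. The GC content of the hairpin was 55.8% for Mir22, 57.6% for Mir132 and 69.2% for Mir212.

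The members lie on the plus strand of chromosome 11 (coordinates of GRCm38, mm10). Mir212 (ENSMUSG00000065590.1, 75173388 to 75173478) lies 203 bases before Mir132 (ENSMUSG00000065537.2, 75173682 to 75173747), and both are in an intron of the noncoding gene 1700016P03Rik. Mir22 (ENSMUSG00000065529.1, 75463716 to 75463810) lies 290 kb further on, inside exon 2 of both annotated transcripts of its noncoding host gene Mir22hg. It also lies inside exon 2 of 1 of the 4 annotated transcripts of the protein-coding gene Tlcd2. The 1 miRNA gene between Mir132 and Mir22, Gm47300, had 0 reads in both libraries.

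Replicate 2 held 5284446 reads in miRNA genes and replicate 1 held 3037063, which were 27.0% and 32.1% of all their reads. The level that a count of 0 allows (3 reads) was 0.568 and 0.988 reads per 1000000 reads in miRNA genes (CPM) in replicates 2 and 1. Cardiac muscle markers were present: Mir208a, in an intron of the alpha myosin heavy chain gene, reached 9154 CPM in replicate 2 and 5184 in replicate 1. The cardiac list of 7 genes summed to 14802 and 10834 CPM, most of it Mir208a and Mir499 (5487 and 5559 CPM). Mir1a-1, Mir1a-2, Mir133a-1 and Mir133a-2 were low, at most 26.7 CPM in replicate 2 and 27.7 CPM in replicate 1. Of the other marker lists, the neuron list (14 genes, 4 with no read, all 3 Mir124a genes among them) summed to 278 CPM in replicate 2 and 336 CPM in replicate 1, most of it Mir128-1 (149 and 229 CPM). The endothelial list (4 genes) summed to 114723 and 86801 CPM, led by Mir126a. The leukocyte list (4 of 5 genes matched by name) summed to 7238 and 6557 CPM, led by Mir155. The erythroid list (3 genes) summed to 2542 CPM in replicate 2 and 8201 CPM in replicate 1, led by Mir451a, and the epithelial list (7 genes) to 3874 and 298 CPM, led by Mir205. The sums rest on few genes. In the neuron list 12 of the 14 genes, all 3 Mir124a genes among them, share a 22-base stretch with another hairpin. In the cardiac list 4 of 7 do, which are the low Mir1a and Mir133a genes. Reads mapped to several places are counted for no gene, so such genes can lose reads. The low neuron sum therefore cannot show that neuronal miRNAs were absent. In the epithelial list Mir205 (1963 CPM in replicate 2 and 2.30 in replicate 1) and Mir200c (1652 and 82.6) made up most of the difference, while Mir200b and Mir429 were higher in replicate 1 (log2 ratios -0.61 and -0.68). In the erythroid list Mir144 and Mir451a were higher in replicate 1 and Mir486 was higher in replicate 2 (log2 ratio 0.35). All 3 tested endothelial markers were higher in replicate 2, as Mir22 and Mir132 were: Mir126a by a log2 ratio of 0.37, Mir221 by 1.57 and Mir222 by 2.64. Of the 7 cardiac markers, Mir208a (0.82) and Mir208b (1.21) were higher in replicate 2 and 5 did not pass. Of the tested neuron markers, 2 were higher in replicate 2, 3 were higher in replicate 1 and 3 did not pass, and of the leukocyte markers 3 were higher in replicate 2 and 1 in replicate 1. These calls are from an exact binomial test of the library difference, which 52.8% of all tested genes passed, and the part of these cell types in the results on Mir22 and Mir132 was not tested.

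Mir22 was one of the miRNAs with the most reads in this heart tissue, Mir132 had far fewer, and Mir212 had few. By mean level, most of the genes with any read still lay below each of them. Mir22 had 183969 reads in replicate 2 and 41382 in replicate 1. This gave levels of 34813 CPM (34657 to 34970, the Wilson interval at 95% confidence) and 13626 CPM (13496 to 13757), for a mean of 24219 ± 14982 CPM (SD, n = 2). Mir22 alone took 3.48% of the counted miRNA reads in replicate 2 and 1.36% in replicate 1, and the intervals of the libraries did not overlap. Mir132 had 3531 reads in replicate 2 and 969 in replicate 1. Its level was 668 CPM (647 to 691) and 319 CPM (300 to 340), for a mean of 494 ± 247 CPM (SD, n = 2), again with intervals that did not overlap. Mir212 had 88 reads in replicate 2 and 52 in replicate 1. Its level was 16.7 CPM (13.5 to 20.5) and 17.1 CPM (13.1 to 22.5), for a mean of 16.9 ± 0.332 CPM (SD, n = 2), and here the intervals overlapped almost wholly. Intervals cover counting error only. No molecular identifiers are recorded, so each read was counted as if it came from its own molecule. In a bulk tissue, fewer cells of a type and less RNA per cell cannot be told apart. On the opposite strand all 3 genes had 0 reads in both libraries.

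**Figure D1:**
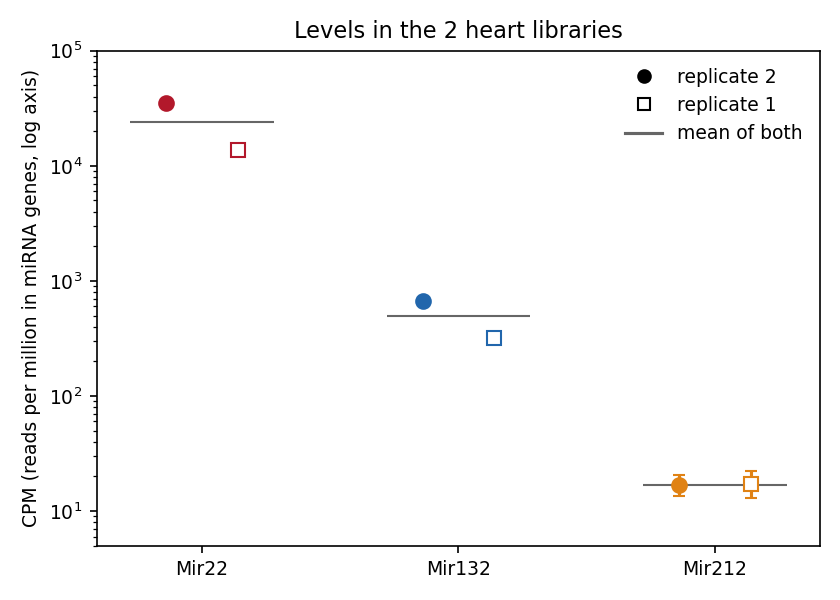
Level of each gene in CPM (log axis) in replicate 2 (filled circle) and replicate 1 (open square), with 95% Wilson intervals and the mean of both (line). Mir22 and Mir132 were higher in replicate 2, while Mir212 was at 16.7 and 17.1 CPM in replicates 2 and 1.

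The order Mir22, Mir132, Mir212 was the same in both libraries, with no overlap of the intervals of different members within a library. Mir22 ranked 11 in replicate 2 and 16 in replicate 1. Its neighbours in rank in replicate 2 were Mir23b (37723 CPM) above and Mir99a (31680 CPM) below, and in replicate 1 Mir30d (13894 CPM) above and Mir30a (11603 CPM) below. All 4 differed from it beyond counting error within the library, with intervals that did not overlap. Mir132 ranked 81 in replicate 2, between Mir351 (683 CPM) and Mir181d (664 CPM), and 94 in replicate 1, between Mir125b-1 (320 CPM) and Mir92-2 (298 CPM). The intervals of these 4 neighbours overlapped that of Mir132, so its exact place is not resolved. Mir212 ranked 223 in replicate 2 and 217 in replicate 1, where its neighbours Mir7-1, Mir485, Mir219a-1 and Mir376c had 92, 88, 53 and 52 reads in the library concerned and overlapped it too. By mean level Mir22 lay above 98.1%, Mir132 above 88.2% and Mir212 above 69.9% of the 735 genes with any read. Reads mapped to several places are counted for no gene, which can lower the ranks of miRNAs made from near-identical hairpins. Of the neighbours named here, Mir125b-1, Mir92-2, Mir7-1, Mir219a-1 and Mir376c share a 22-base stretch with another hairpin. How readily each miRNA enters a library was not measured, so a ratio between different miRNAs is one of reads.

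**Figure D2:**
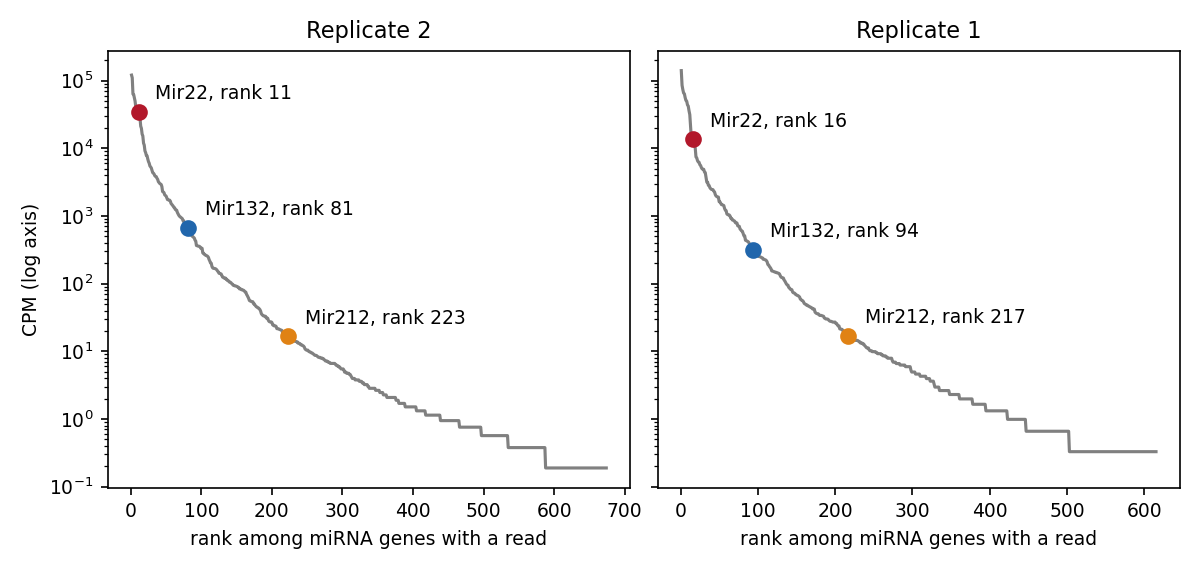
CPM (log axis) against rank for the miRNA genes with a read in replicate 2 (left, 674 genes) and replicate 1 (right, 615 genes). Mir22 sits near the top of the steep part at ranks 11 and 16, Mir132 at 81 and 94, and Mir212 far down the slope at 223 and 217.

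The genes with the levels most like each member were found by the Euclidean distance in log2(CPM + 1) over the 2 libraries. For Mir22 these were Mir149 (27696 CPM in replicate 2 and 21593 CPM in replicate 1, distance 0.742), Mir29a (0.825) and Mir30d (1.11). For Mir132 they were Mir181b-2 (495 and 260 CPM, distance 0.520), Mir10b (0.570) and Mir872 (0.582). For Mir212 they were Mir540 (16.3 and 16.5 CPM, distance 0.0619), Mir369 (0.185) and Mir3074-1 (0.189). With 2 libraries this likeness describes levels only.

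Within the Mir212 and Mir132 pair, almost all reads were of Mir132. In replicate 2, Mir132 had 40.1 reads for each read of Mir212 (95% exact interval 32.5 to 50.2). In replicate 1 the ratio was 18.6 (14.1 to 25.1). On the log2 scale the ratio averaged 4.77 ± 0.78 (SD, n = 2). Mir132 thus had far more reads than Mir212 in both libraries, and the intervals of the 2 ratios did not overlap. The ratio was 2.15 times as high in replicate 2 as in replicate 1 (95% interval 1.49 to 3.09), a difference beyond counting error (Fisher's exact test, two-sided, p = 4.22e-05, adjusted over the 3 ratios among the members 4.22e-05). Of the reads from the genes with the shared 3p seed, Mir212 gave 2.43% (1.98 to 2.99, Wilson interval) in replicate 2 and 5.09% (3.90 to 6.62) in replicate 1. Together the pair summed to 685 CPM in replicate 2, against 336 in replicate 1. The counts do not separate the arms, so how many of these reads carry the shared seed is unknown.

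Neighbouring miRNA genes often differ in reads, and the pair was set beside others of the kind. There were 47 pairs of consecutive miRNA genes on 1 strand, at most 10 kb apart, each with at least 100 reads over both libraries. Some pairs share a gene, so they are not independent, and no test was made. Pairs in which either gene had fewer than 100 reads were left out, and such pairs can be more uneven. Mir212, with 88 and 52 reads in replicates 2 and 1, is near this limit. The numbers of pairs with a larger ratio may therefore be too low. The size of the mean log2 ratio was larger than 4.77 in 9 pairs and smaller in 37, with a median of 3.37. In 25 of these pairs a member shares a 22-base stretch with another hairpin and can lose reads that map to several places. Among the 22 pairs without such a stretch, 3 had a larger ratio than Mir132 and Mir212, and these were Mir503 with Mir322 (5.70), Mir30b with Mir30d (5.39) and Mir141 with Mir200c (5.15). The same member was higher in both libraries in all 22 of these. The change of log2 ratio between libraries, 1.11 for Mir132 over Mir212, was exceeded in size by 4 of the 22, and the median size was 0.51.

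**Figure D3:**
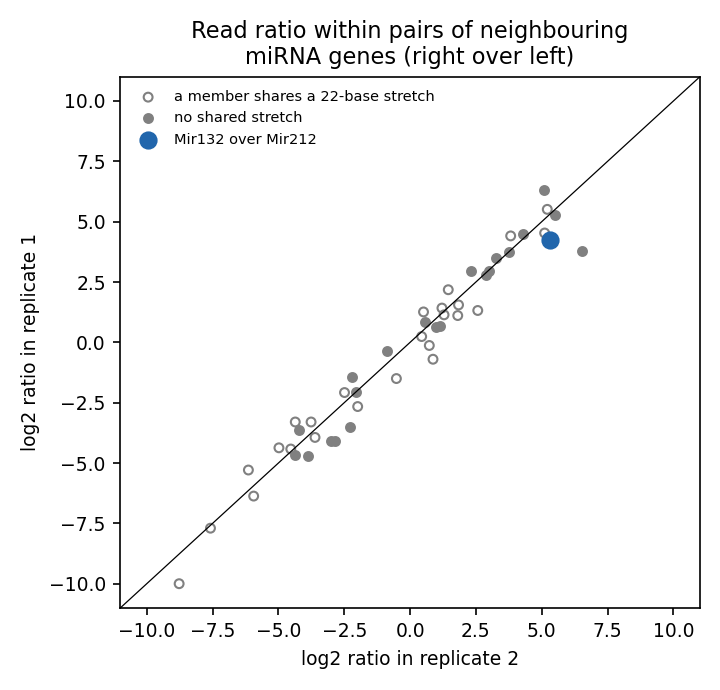
Log2 read ratio within each of 47 pairs of neighbouring miRNA genes (gene at the higher coordinate over the other) in replicate 2 (x axis) and replicate 1 (y axis), with the line of equal ratios. Mir132 over Mir212 (large point) lies at 5.33 in replicate 2 and 4.22 in replicate 1, below the line, and open circles mark pairs in which a member shares a 22-base stretch with another hairpin.

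Mir22 exceeded Mir132 by 52.1 reads to 1 in replicate 2 (95% exact interval 50.4 to 53.9) and 42.7 to 1 in replicate 1 (40.1 to 45.6), a log2 ratio that averaged 5.56 ± 0.20 (SD, n = 2). The difference between libraries was small but beyond counting error (ratio of ratios 1.22, 95% interval 1.13 to 1.31, Fisher's exact test, two-sided, adjusted over 3 ratios p = 2.32e-07). Mir22 exceeded Mir212 by 2091 reads to 1 in replicate 2 (1697 to 2607) and 796 to 1 in replicate 1 (607 to 1066). The ratio of Mir22 to Mir132 was thus the steadiest of the 3 ratios between the libraries.

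Between the libraries, 2 of the 3 members differed beyond counting error, both higher in replicate 2. Mir22 was 2.55-fold higher in replicate 2 (95% exact interval 2.53 to 2.58, log2 ratio 1.35), and its p in the exact binomial test was too small for the number format. Mir132 was 2.09-fold higher in replicate 2 (1.95 to 2.25, log2 ratio 1.07, adjusted p = 1.92e-103, exact binomial test with Benjamini-Hochberg adjustment over 424 genes). Mir212 had a ratio of 0.973 (0.683 to 1.40, log2 ratio -0.04, adjusted p = 0.924, exact binomial test), so a difference of the size seen for Mir132 lay outside its interval. The background is high: 224 of 424 tested genes (52.8%) passed this test, 30.9% as higher in replicate 2 and 21.9% as higher in replicate 1. Among the 134 genes with at least 1000 reads over both libraries, as Mir22 and Mir132 have, 87.3% passed. The test compares 2 libraries and says nothing of conditions.

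A second test added the spread between the libraries to counting error. The common dispersion of edgeR over 321 genes with at least 10 reads in each library gave a coefficient of variation of 40.5%. With it, 12 of 424 genes (2.83%) passed the exact test of edgeR, and Mir22 (adjusted p = 0.887), Mir132 (1.00) and Mir212 (1.00) did not. That dispersion comes from the same pair of libraries, 1 against 1, so these p-values do not show that the members are alike in both. Of the 321 genes, 36 had a log2 ratio larger in size than Mir22, 53 larger than Mir132 and 303 larger than Mir212, and the median size was 0.38. Among the 16 other such genes within 3-fold of the mean level of Mir22, 1 had a ratio larger in size (Mir21a), and their median size was 0.22. Among the 64 within 3-fold of Mir132, 5 had a larger one, with a median size of 0.30. Among the 118 within 3-fold of Mir212, 113 had a larger one, with a median size of 0.49. Mir22 and Mir132 thus differed more between the libraries than most genes of like level. The log2 ratio of Mir212 was smaller in size than most. With 88 and 52 reads its exact interval ran from -0.55 to 0.48. Counting error alone reaches the median size of 0.49, so whether Mir212 differed less is not resolved.

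**Figure D4:**
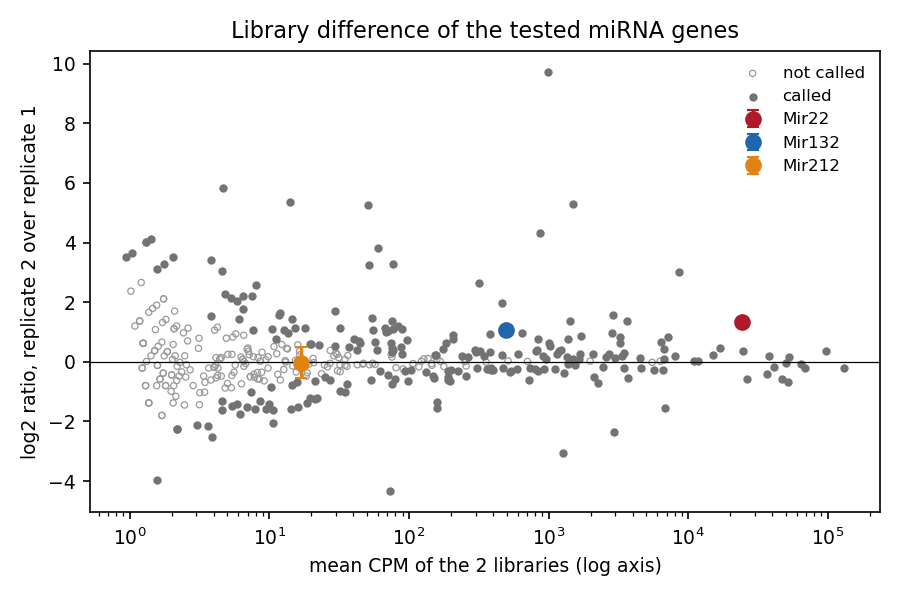
Log2 ratio of replicate 2 over replicate 1 against mean CPM (log axis) for the 424 tested miRNA genes, filled where the exact binomial test passed after adjustment. Large points are the members with 95% exact intervals: Mir22 at 1.35 and Mir132 at 1.07 lie above most genes of their level, and Mir212 at -0.04 lies at 0.

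Other miRNAs reported to act on the growth of cardiac muscle cells were read from 2 lists. Of 11 growth-promoting genes, 10 were tested by the exact binomial test. Among them, 5 were higher in replicate 2, 3 were higher in replicate 1 and 2 did not pass. The background over all tested genes was 30.9% higher in replicate 2 and 21.9% in replicate 1. Among all genes with at least 1000 reads over both libraries, as most of these 10 have, 87.3% passed. The number of calls is therefore not particular to the list. Of the 8 called, Mir21a also passed the exact test of edgeR (adjusted p = 0.0355), and the other 7 did not (adjusted p = 1.00 each). The median log2 ratio of the 10 was 0.44, against 0.07 over all tested genes. Those higher in replicate 2 were Mir21a (15190 CPM in replicate 2 and 1899 CPM in replicate 1), Mir214, Mir208a, Mir27b and Mir155, and those higher in replicate 1 were Mir195a, Mir23a and Mir199b. Mir499, in an intron of a myosin heavy chain gene, did not pass (5487 and 5559 CPM). Of 14 growth-restraining genes, 11 were tested, of which 4 were higher in replicate 2, 2 were higher in replicate 1 and 5 did not pass, with a median log2 ratio of 0.13. That is 6 of 11, near the 52.8% of all tested genes. Of these 6, Mir26a-1 also passed the exact test of edgeR (adjusted p = 0.0252), while Mir26a-2 (0.887) and the other 4 (1.00 each) did not. Mir26a-1, Mir26a-2, Mir98 and Mir150 were higher in replicate 2, and Mir378a and Mir26b in replicate 1. The 5 that did not pass were of the miR-1 and miR-133 families, at 3.78 to 26.7 CPM in replicate 2 and 2.63 to 27.7 CPM in replicate 1, and 4 of these share a 22-base stretch with another hairpin. In mean level, 3 of these 25 genes lay above Mir22: Mir378a (130358 CPM), Mir23a (51660 CPM) and Mir26b (26301 CPM). Above Mir132 lay 12 of the 25 and above Mir212 lay 15. Of the 11 growth-promoting genes 3, and of the 14 growth-restraining genes 10, share a 22-base stretch with another hairpin. Such genes can lose reads that map to several places, so the numbers above each member may be too low. Of the 21 tested, Mir21a, Mir26a-1 and Mir26a-2 had a larger log2 ratio than Mir22, with Mir26a-1 at 3.27 and Mir26a-2 at 1.36. Mir26a-1 (740 reads in replicate 2 and 44 in replicate 1) and Mir26a-2 (573 and 128) share a 22-base stretch with another hairpin. Mir26b, which shares none, was at -0.57. What part lost reads have in these ratios was not tested.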

How the data were processed

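Small RNA libraries of 1 group (2 replicates) were used. The authors deposited raw read counts per miRNA gene for either strand and for each strand. Per the labels, reads were aligned to mm10, and the deposited text names GENCODE M21. For the aligner, the counter and trimming, the methods are not given in the sources used. Sense was taken as the strand column that holds more miRNA gene reads. The 4 summary lines were left out of totals and tests. In replicates 2 and 1, 34.3% and 19.4% of all reads were unmapped, 32.5% and 40.7% mapped to several places, and 6.27% and 7.79% lay outside miRNA genes. Reads of CAST/EiJ alleles may be lost, which these counts cannot show.

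Counts were scaled to CPM. Genes with a summed count of at least 10 were tested by a two-sided exact binomial test given the library totals (scipy 1.17.1). The p-values were adjusted by Benjamini-Hochberg at a threshold of 0.05. The test was checked on data simulated with counting error only, so the check does not cover the spread between these libraries. Ratios have exact Clopper-Pearson intervals. Alternatives were the column for either strand, TMM and the exact test of edgeR 4.0.16, size factors of DESeq2 1.42.0, all reads as the total, no filter, and each library alone. Named genes were the members, their neighbours in rank, the 3 genes nearest in level, genes with the same seed, host genes, both growth lists and the leading gene of each marker list. Genes named among neighbouring pairs, Gm47300, Mir128-1, the markers other than the leading ones, and Mir21a among genes of like level were chosen after their values were seen. Members and lists were chosen with earlier results of these data known. Mir146a was not matched by name.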

Additional observations from a re-analysis of the deposited data

How the results depend on the processing

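No paired analysis was possible because there is 1 group. With the exact test of edgeR and the common dispersion, Mir22 (log2 ratio 1.34, adjusted p = 0.887) and Mir132 (1.05, adjusted p = 1.00) did not pass, and 12 genes passed instead of 224, because that test adds the spread between the libraries to counting error. Per 1000000 of all reads, the mean levels were 6884 for Mir22, 141 for Mir132 and 4.99 for Mir212, because the total includes reads given to no gene. Per 1000000 reads outside the 10 most abundant genes, a scaling chosen after seeing the data, they were 65824, 1349 and 47.3. In the column for either strand the reads of the members were the same but the total smaller, which put Mir212 at 22.8 CPM and at rank 202 by mean level instead of 221. Among genes with no shared 22-base stretch, Mir132 ranked 71 instead of 87 and Mir212 166 instead of 221, because fewer genes are ranked. TMM and DESeq2 scaling moved all log2 ratios by -0.01 and -0.02, and scaling to reads outside the 10 most abundant genes moved them by -0.19. With each library left out in turn, replicate 2 alone gave 34813 CPM for Mir22, 668 for Mir132, 16.7 for Mir212 and a log2 ratio of 5.33 for Mir132 over Mir212, and replicate 1 alone gave 13626, 319, 17.1 and 4.22. With 2 libraries these values do not measure stability. Depth limits Mir212 most: with 88 and 52 reads, a ratio between the libraries from 0.683 to 1.40 cannot be told apart from none.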
